A study of Oryza sativa Japonica Group and Oryza sativa Indica Group with 24 samples.

Results

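The salt response of m103, a japonica rice cultivar that the series text calls sensitive to salt, was measured on 6 of the study's 24 arrays. These were the 3 arrays titled as m103 under salt stress and the 3 titled as m103 control, each set of 3 called biological replicates. All arrays carried RNA of the crown and growing point, the compressed stem base that holds the shoot meristem, taken at panicle initiation. The other 18 arrays hold salt and control plants of agami, a japonica cultivar called tolerant, and of a first and a second set that both carry the name ir29. The study covers indica as well as japonica rice, and its design also names a further genotype that no title carries. Whether the first and the second ir29-labelled set are the same cultivar therefore cannot be told, and they were kept apart. The free-text description of every sample speaks of unstressed tissue, so the condition was taken from the title, which the treatment field matches. The sources used here do not give the salt level, the length of the stress or the number of plants in a sample, and a single cultivar under a single condition stands behind each group. In such tissue samples, fewer cells of a type and less RNA per cell cannot be told apart.

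Salt reaches a plant as a water shortage first and as a build-up of sodium later. Rice plants under salt are known to make dehydrins and other protective proteins under the hormone abscisic acid, to make proline and polyamines, to move sodium and potassium with dedicated carriers and to slow growth. The start of panicle formation is known as a stage at which salt costs rice much of its yield, because the meristem then sets the number of branches and florets.

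Each array was put on 1 scale by setting its trimmed mean to 500, as 5 of the 6 m103 arrays had been deposited with a trimmed mean of 65.1 to 115.7 and 1, salt replicate 1, with 500.1. The scaled signals were compared as log2(signal + 16) with limma across all 24 arrays, for the 34355 probe sets (groups of short probes that report 1 transcript or a few related ones) with a mean signal above about 27.9. Calls were made where the p adjusted by Benjamini-Hochberg was under 0.05, and every adjusted p below is limma's. Pearson's r over these probe sets was 0.963 to 0.970 among salt arrays, 0.970 to 0.973 among control arrays and 0.954 to 0.962 between a salt and a control array. The actin 3′ to 5′ signal ratio, a sign of RNA integrity, was 5.57 to 5.95 in salt arrays and 4.46 to 5.59 in control arrays. The precision is limited by having 3 arrays a group, and nothing shows the arrays' samples to come from separate plantings beyond the word biological in the titles.

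Salt changed many transcripts in m103, and the rises reached further than the falls. In all, 3039 probe sets were called (8.85% of those tested), of which 1433 were higher with salt (4.17%) and 1606 lower (4.67%). At least a 2-fold rise was called for 419 probe sets (1.22%) and at least a 2-fold fall for 460 (1.34%). A log2 change of 2 or more was called for 106 rises and 39 falls, of 3 or more for 44 rises and 2 falls, and of 4 or more for 15 rises and no fall. The median change was 0.65 among called rises and -0.74 among called falls, against 0.02 over all probe sets tested. The 3 salt arrays lay wholly above the 3 control arrays for 1394 of the called rises and wholly below them for 1587 of the called falls. Over all probe sets tested, called or not, 14.1% lay wholly above and 13.4% wholly below.

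Large rises came mostly from probe sets that were dim in control. The median control signal was 64.8 for the 106 rises of log2 2 or more, against 309 for all probe sets tested. The filter used the mean over all arrays of the study, salt arrays included. A probe set below its limit of about 27.9 in the m103 controls was therefore tested only if it was brighter on other arrays. LOC4349113, with 3.46, 2.03 and 3.15 in control, is an example. How far the filter shaped this pattern was not tested. Called rises of any size had a median control signal of 906 and called falls one of 1575. The number of calls rested on each array: it fell to 1756 when salt replicate 2 was left out, to 1757 for control replicate 1 and to 2019 for control replicate 3, and 584 of the rises and 694 of the falls were called in all 6 fits that left out 1 array. Of the 176 called genes in this report, 65 lost the call in at least 1 of these fits, and not all of them are marked below.

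**Figure D1:**
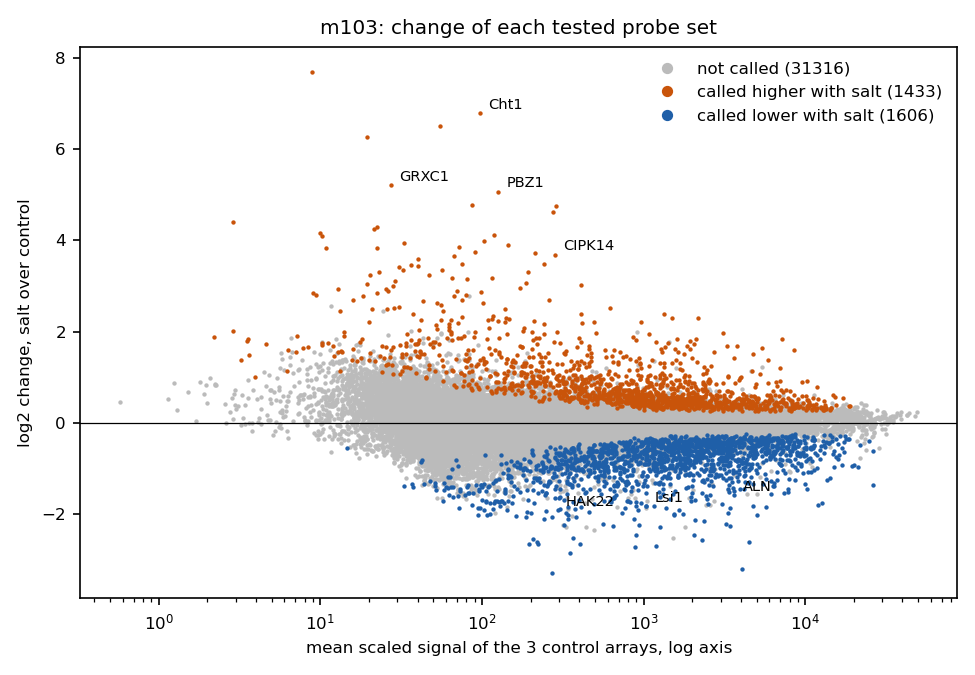
The horizontal axis is the mean scaled signal of the 3 control arrays of m103 on a log axis and the vertical axis the log2 change of salt over control; each point is 1 of 34355 probe sets, with the 1433 called higher in orange, the 1606 called lower in blue and the others in grey. The farthest points above the zero line lie at low control signals, and the largest called fall is at -3.31.

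The largest rise of a named gene was that of a chitinase, an enzyme that cuts the chitin of fungal walls. Cht1 (gene ID LOC4338719) had scaled signals of 11174, 15727 and 7952 on the 3 salt arrays, against 39.8, 167.6 and 84.4 on the 3 control arrays. Every salt array was far above every control array, and the log2 change was 6.79 ± 0.44 (SE, adjusted p = 6.5e-10). PBZ1, a pathogenesis-related protein of the PR10 family known from rice treated with the defence activator probenazole, had 11043, 15234 and 530.5 in salt, against 192.3, 84.5 and 99.5 in control. Salt replicate 3 was far dimmer than the other salt arrays and still above all controls, and the log2 change was 5.07 ± 0.75 (adjusted p = 0.00011).

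Of 11 tested genes for chitinases and glucanases, 6 rose and none fell, with a median log2 change of 2.15 over the 11. Among all 2272 named genes tested, with 1 probe set a gene, 7.88% rose and 7.66% fell, and among all 16264 genes with or without a name 6.46% rose and 7.11% fell. These shares are the background for every count of list members in this report. A second chitinase that older literature also calls Cht1, here Cht-1 (LOC4342115), had 3616, 1011 and 787 in salt and 213.5, 138.6 and 161.3 in control, a rise of 2.97 ± 0.38. Cht11 rose by 2.80 ± 0.32, with 733.6, 671.1 and 520.5 in salt and 78.2, 56.1 and 103.3 in control. Cht2 (2.50 ± 0.54), Cht4 (2.26 ± 0.61) and Cht-3 (2.15 ± 0.52) rose as well. Cht2 and Cht4 were dim and uneven. Cht4 had 907.8, 284.9 and 59.1 in salt against 54.45, 35.15 and 37.2 in control, and its call held in only 2 of the 6 fits that left out 1 array. The 5 other tested members, Cht5 with a log2 change of 1.86 among them, were not called.

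Other defence-type proteins were less even. Of 9 pathogenesis-related proteins and protease inhibitors, 3 rose and none fell: PBZ1, the Bowman-Birk trypsin inhibitor RBBI3.3 (1.97 ± 0.24) and the cystatin OC-X (1.38 ± 0.40), whose call held in 1 of the 6 fits that left out 1 array. The gene listed as pinA rose by 2.30 ± 0.26, with 18901, 9805 and 6315 in salt and 2301, 1678 and 2511 in control. LTP, a lipid transfer protein, rose by 2.70 ± 0.55 and LOX1.1, a lipoxygenase that makes oxygenated fatty acids, by 1.99 ± 0.48. Their lowest salt values, 385.4 for LTP and 253.4 for LOX1.1, were in salt replicate 3, as for PBZ1. For LTP this lay below the highest control array, 446.8, so the groups overlapped. None of the 8 tested diterpenoid phytoalexin genes, which make the antimicrobial compounds of rice, was called, and no member of the 5 tested WRKY factors was. Of 8 germin-like proteins, wall proteins that respond to pathogens in cereals, none was called higher, though the highest log2 change among them, not called, was 1.999. GER4 fell by 0.85 (SE 0.15), with 1113, 1089 and 1276 in salt and 2352, 1834 and 2149 in control, and GER8 fell by 0.96 (SE 0.21).

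A few thiol and metal-binding proteins rose far, while most members of their families were not called. GRXC1, a glutaredoxin (a small thiol reductase that uses glutathione), had 2103, 1821 and 726.3 in salt, against 45.4, 35.15 and 1.89 in control. The salt arrays were all above the control arrays, and the log2 change was 5.22 ± 0.44 (adjusted p = 5e-08). GRXC10 rose by 3.94 ± 0.42 and GRXC15 by 3.31 ± 0.34. GRXC10 was even within groups, with 795.2, 763.9 and 643.4 in salt and 27.7, 40.6 and 30.9 in control. Over the 32 glutaredoxins and thioredoxins tested the median was 0.07, with 3 called higher and 1, GRXC7, called lower (-0.63 ± 0.14). Of 7 metallothioneins, cysteine-rich proteins that bind zinc and copper, MT4A and MT2A rose. MT4A had 3956, 3946 and 1707 in salt and 212.6, 204.1 and 221.1 in control (3.72 ± 0.30), and MT2A, already bright, had 28204, 26626 and 22360 in salt and 7985, 10120 and 7410 in control (1.60 ± 0.18). The other 5 metallothioneins were not called by their brightest probe sets, at 0.17 to 0.88, though a dimmer probe set was called higher for both MT2B (0.90) and MT2C (0.55).

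Both non-symbiotic haemoglobins tested rose. These plant haemoglobins bind oxygen tightly and remove nitric oxide. NSHB1 had 1058, 1068 and 1348 in salt and 100.7, 149.4 and 94.5 in control, a log2 change of 3.18 ± 0.31 (adjusted p = 3.1e-07). Its other 2 probe sets gave 3.15 and 4.11. NSHB2 had 220.6, 415.6 and 317.9 in salt and 27.7, 107.5 and 52.9 in control (2.17 ± 0.48). The list of fermentation and hypoxia genes held no other call, with 2 of 7 called, both of them these haemoglobins. Among 20 catalases, peroxidases and superoxide dismutases 3 rose, the ascorbate peroxidases APX7 (0.73 ± 0.11) and APX6 (0.34 ± 0.08) and the peroxidase PRX112 (0.64 ± 0.15), and PRX74 fell by 0.70 (SE 0.12). The glutathione transferases GSTZ5 (0.68 ± 0.18) and GST1 (0.56 ± 0.13) rose among 6 tested. The call of GSTZ5 held in 3 of the 6 fits that left out 1 array.

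**Figure D2:**
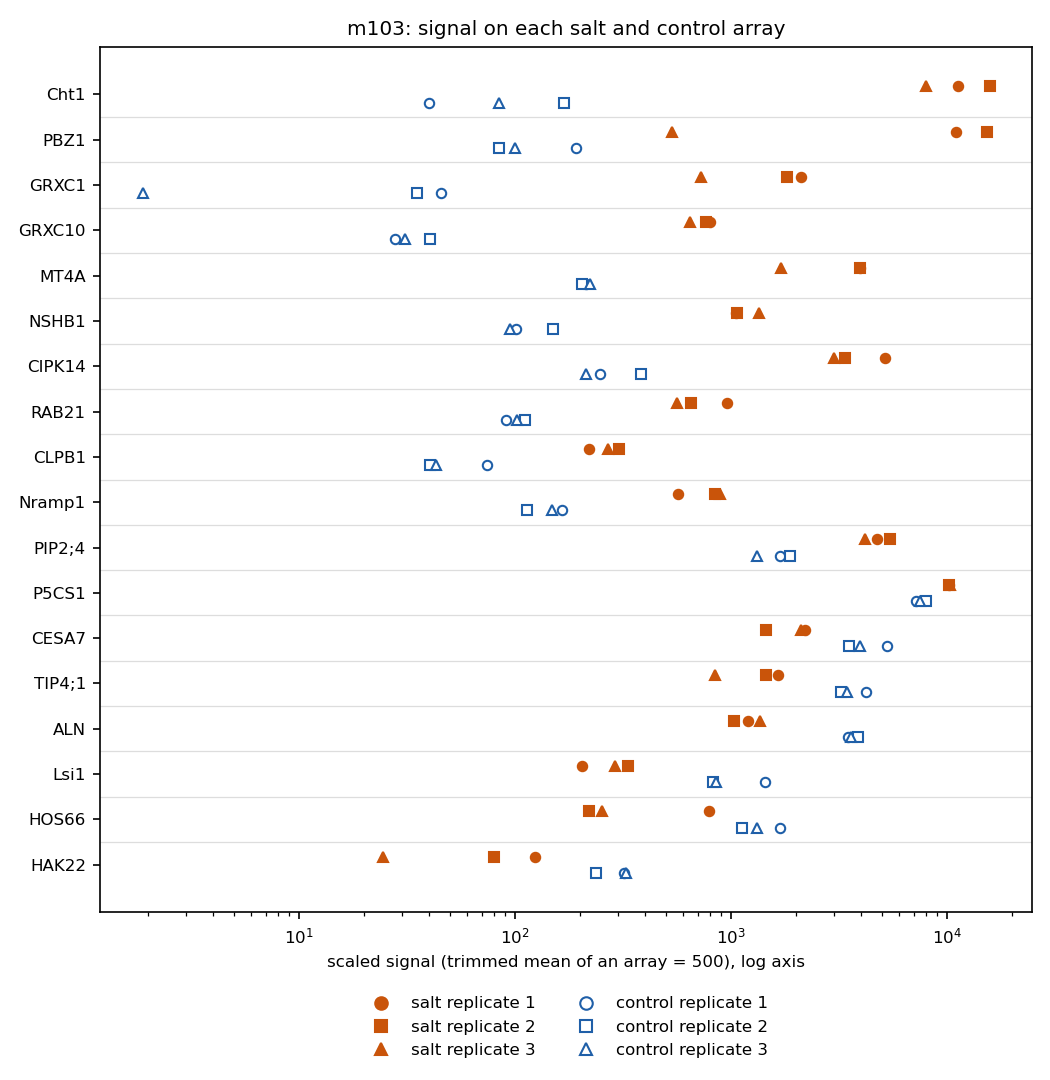
Each row is 1 gene of m103, with the scaled signal on a log axis, the 3 salt arrays as filled orange symbols on the upper line of the row and the 3 control arrays as open blue symbols on the lower line. Salt and control symbols do not overlap in any row, and salt replicate 3 (triangle) of PBZ1, at 530.5, stands apart from the other 2 salt arrays.

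Most tested genes for proteins that protect drying cells were called higher, several of them in calls that rested on single arrays. Of 7 late-embryogenesis-abundant (LEA) proteins and dehydrins, 5 rose and none fell, with a median of 1.12. Over all named genes 7.88% rose and 7.66% fell. RAB21, a dehydrin that abscisic acid induces, had 956.2, 655.1 and 562 in salt and 90.3, 111.5 and 102 in control. The rise was 2.63 ± 0.25 (adjusted p = 3e-07), and its second probe set gave 2.33. RAB16B (1.26 ± 0.33) and RAB16C (1.12 ± 0.31), dehydrins of the same family, also rose. RAB16B was called in 3 and RAB16C in 2 of the 6 fits that left out 1 array. PM19L1, a membrane protein of drying embryos, rose by 1.91 ± 0.44 from a dim level of 1.89 to 11.7 in control. Its call held in 5 of the 6 fits. Dhn1 rose by only 0.32 ± 0.10. EM and rab25, of the same list, were at -0.17 and -0.22 and not called.

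Compatible solutes gave a small and regular rise, with 6 of 10 genes higher and none lower, and a median of 0.42. Polyamine synthesis accounted for 4 of the 6: the arginine decarboxylases ADC2 (1.09 ± 0.25) and ADC1 (0.58 ± 0.14), the spermidine synthase spdSyn1 (0.56 ± 0.09) and the S-adenosylmethionine decarboxylase SAMDC (0.37 ± 0.10). P5CS1, the enzyme that commits glutamate to proline, had 10146, 10146 and 10257 in salt and 7193, 8017 and 7506 in control. Its change was small, 0.43 ± 0.08, but the groups were tight (adjusted p = 0.00095). OAT, the ornithine aminotransferase, rose by 0.41 ± 0.10. The betaine aldehyde dehydrogenases BADH (0.29 ± 0.11) and BADH2 (0.44 ± 0.14) were not called.

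Abscisic acid genes moved both ways. SAPK7, a kinase that osmotic stress and abscisic acid activate, rose by 0.62 ± 0.12, while its relatives SAPK5 and SAPK4 fell by 0.47 (SE 0.10) and 0.37 (SE 0.08). ABA8OX2, which breaks abscisic acid down, rose by 0.78 ± 0.23 in a call that held in 2 of 6 fits. The other 12 of 16 tested members were not called. Of 53 protein phosphatases 2C, many of them brakes on this signal, PP2C09 rose by 0.79 ± 0.22, with overlapping arrays and a call that held in 2 of the 6 fits that left out 1 array, and 3 fell, PP2C54 by 0.79 (SE 0.14), PP2C73 by 0.76 (SE 0.16) and PP2C58 by 0.36 (SE 0.10), the last call holding in 1 of 6 fits. NAC071, a NAC transcription factor that rice raises under drought and salt, had 623.3, 819 and 553.6 in salt and 217.8, 196 and 200.3 in control (1.61 ± 0.25), the only call among 7 NAC factors.

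Several genes best known from salt, cold or drought in rice were not called in this tissue. salT, a mannose-binding lectin named for its salt response, had 31907, 3747 and 905.2 in salt, against 1992, 1070 and 1258 in control. Salt replicate 1 was far above all other arrays and salt replicate 3 lay below every control array, so the groups overlapped (1.77 ± 0.65, adjusted p = 0.10), and without salt replicate 3 the fit called it. NAC048 (0.62 ± 0.52), ABF2 (0.47 ± 0.18), MYB2 (-0.71 ± 0.52), CBF3, also listed as DREB1A (-0.67 ± 0.77), and DREB2A (-0.14 ± 0.23) were not called either. No member of the 9 tested DREB and ERF factors passed, and the calls among 30 jasmonate genes were LOX1.1 higher and LOX2 and LOX5 lower. The call of LOX1.1 held in 4 and that of LOX2 in 2 of the 6 fits that left out 1 array. That of LOX5 ended whenever 1 array was left out.

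Some heat shock proteins rose. CLPB1, the disaggregase also called HSP101, had 220.4, 301.6 and 270.3 in salt and 74.3, 40.6 and 42.8 in control, a rise of 2.05 ± 0.24 (adjusted p = 5e-06). The small heat shock proteins HSP24.1 (1.81 ± 0.39), HSP16.9A (1.34 ± 0.25) and hsp17.9 (1.33 ± 0.23) rose, and HSP18.8 fell by 0.89 (SE 0.25) with arrays that overlapped. The other 17 of 22 tested heat shock proteins were not called, and the list's median was 0.44. HSP18.6 was at 1.195 and not called by its brightest probe set, while another of its probe sets was called higher (1.5003, adjusted p = 0.012). Among 19 heat shock factors, by their brightest probe sets, none was called higher and HSFA3 fell by 1.68 (SE 0.42), with 59.9, 105 and 101.3 in salt and 446.8, 244.7 and 280.9 in control. A dimmer probe set of HSFA2C was called higher (0.98, adjusted p = 0.00056), against 0.31 and no call for its brightest, whose difference from the other sets was called (1.34 ± 0.32). Chaperones of the endoplasmic reticulum (14 tested), proteasome subunits (19 tested) and autophagy genes (7 tested) held no call, with medians of 0.01, 0.06 and -0.14.

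Carriers of potassium and sodium did not stand out by their number of calls. Of 25 tested, 2 rose and 3 fell, where 7.88% of all named genes rose and 7.66% fell. HAK22, of the high-affinity potassium transporter family, had 123.6, 80 and 24.6 in salt and 319.3, 237.9 and 325.7 in control, a fall with a log2 change of -1.91 ± 0.46 (adjusted p = 0.0087). HAK12 fell by 0.59 (SE 0.15) and the cation-chloride cotransporter CCC1 by 0.33 (SE 0.08), while HAK2 (0.53 ± 0.12) and the vacuolar potassium channel TPK2 (0.45 ± 0.13) rose. The call of TPK2 held in 2 of the 6 fits that left out 1 array. HKT1.5, the carrier that takes sodium back out of the xylem and underlies a major salt tolerance locus of rice, had 211.9, 265.7 and 185 in salt and 340.9, 298.7 and 325.7 in control. Its arrays did not overlap, but the change of -0.52 ± 0.21 was not called (adjusted p = 0.13). HAK1 was at 0.60 ± 0.51 and not called.

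Water and silicon channels were split. Of 25 aquaporins, 3 rose and 3 fell. The plasma membrane channel PIP2;4 had 4755, 5434 and 4159 in salt and 1688, 1872 and 1311 in control (1.56 ± 0.23), and PIP1;3 rose by 1.16 ± 0.23. The vacuolar channel TIP4;1 had 1648, 1456 and 841.5 in salt and 4220, 3219 and 3430 in control (-1.497 ± 0.31). A second, dimmer probe set of TIP4;1 was at 0.49 ± 0.51 and not called. Lsi1, the silicon channel of roots, had 203.5, 331.7 and 289.4 in salt and 1434, 828 and 853.5 in control, and fell by 1.84 on the log2 scale (SE 0.28, adjusted p = 0.00016). Lsi6, its relative in shoots and nodes, rose by 0.65 ± 0.16, with 6941, 5647 and 4328 in salt and 3583, 3833 and 3198 in control. The call of Lsi6 held in 4 of the 6 fits that left out 1 array.

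Iron and zinc genes were split too, with 4 of 41 tested higher and 5 lower and a median of 0.01. The shares over all named genes were 7.88% higher and 7.66% lower. Nramp1, a carrier of iron and cadmium, had 565.4, 837.6 and 884.5 in salt and 164.6, 113.5 and 147.4 in control (2.29 ± 0.33, adjusted p = 7.7e-05). The nicotianamine synthases NAS2 (2.25 ± 0.48) and NAS3 (0.85 ± 0.17), whose product chelates iron, rose. VIT1.2, a vacuolar iron transporter, fell by 1.48 (SE 0.45), a call that ended whenever 1 array was left out. NRAMP4, an aluminium carrier, fell by 0.89 (SE 0.18), the zinc carrier ZIP5 by 0.84 (SE 0.19) and YSL6, a manganese carrier, by 0.48 (SE 0.10). Calls of NRAMP3 (0.64 ± 0.19) and NRAMP6 (-0.48 ± 0.15) held in 2 of 6 fits.

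The steps that break purines down to ureides changed unequally. AMPD, which deaminates adenosine monophosphate, rose by 0.49 ± 0.10 and XDH, the xanthine dehydrogenase, by 0.42 ± 0.13, and the call of XDH ended whenever 1 array was left out. ALN, the allantoinase that opens allantoin, had 1191, 1035 and 1366 in salt and 3460, 3852 and 3600 in control. It fell by 1.60 on the log2 scale (SE 0.10, adjusted p = 6.5e-10), the smallest adjusted p among named falls. AAH, which acts after it on allantoate, fell by 0.55 (SE 0.17), and UGLYAH was not called (0.26 ± 0.08). UAH, the last enzyme, had 3579, 3257 and 2774 in salt and 1682, 1628 and 1690 in control (0.93 ± 0.10, adjusted p = 3.2e-06). The cytosolic glutamine synthetase GLN1-2, which takes up released ammonium, rose by 1.0965 ± 0.15. MGD3, a galactolipid synthase that phosphate shortage induces, fell by 0.99 (SE 0.10) and was the only call among 19 phosphate genes.

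Sugar genes fell more often than they rose, with 2 of 35 higher and 7 lower and a median of -0.12. SWEET15, a sugar exporter, had 1001, 438.6 and 430.7 in salt and 191.9, 124.4 and 196.5 in control (1.69 ± 0.27), and the sucrose synthase SUS4 rose by 1.33 ± 0.28. The falls included SWEET2b (0.99, SE 0.28), the trehalose-phosphate phosphatase TPP4 (0.92, SE 0.23), the sucrose-phosphate synthase SPS2 (0.57, SE 0.14) and the cell wall invertase CIN7 (0.52, SE 0.15). None of these 4 falls was called in all 6 fits that left out 1 array. The starch genes AGP1 (0.53 ± 0.12) and SSII-1 (0.36 ± 0.11) rose among 11 tested. The call of SSII-1 ended whenever 1 array was left out.

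Genes that build and stiffen cell walls were called lower more often than higher. Cellulose synthases and their relatives (25 tested) held 6 falls and 1 rise, with a median of -0.36, and the lignin pathway (23 tested) held 5 falls and no rise, with a median of -0.40. Over all named genes 7.66% fell and 7.88% rose. CESA7, a synthase of secondary walls, had 2188, 1453 and 2095 in salt and 5255, 3504 and 3930 in control (-1.14 ± 0.24), and its partner CESA4 fell by 0.75 (SE 0.20). CESA8 (-0.66 ± 0.13) and CESA1 (-0.36 ± 0.10), synthases of growing walls, fell with them, as did CESA6 (-0.65 ± 0.12) and CESA5 (-0.45 ± 0.10). In the lignin pathway the ligase 4CL2 fell most (-1.35 ± 0.27), followed by the laccase LAC10 (-1.21 ± 0.28), the alcohol dehydrogenase CAD3 (-0.92 ± 0.16), 4CL4 (-0.86 ± 0.18) and CAD2 (-0.56 ± 0.16). TBL11, a xylan acetyltransferase, had 31.6, 67.9 and 49.9 in salt and 294.7, 147.3 and 184.6 in control (-1.76 ± 0.32).

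Of 24 expansins, which loosen walls, 4 rose, 1 fell and 19 were not called, with a median of 0.21. EXPB6 had 3471, 4779 and 3081 in salt and 1422, 1283 and 1815 in control (1.31 ± 0.16), and EXPB7 (0.84 ± 0.11) and EXPB3 (0.79 ± 0.10) rose in all 6 fits that left out 1 array. EXPA1 (0.996 ± 0.30) had overlapping arrays, its call held in 2 of the 6 fits, and it was called lower in the first ir29 set (-1.07). The wall-linked beta-glucosidase family held 1 call each way among 25, BGLU30 higher (1.02 ± 0.18) and BGLU33 lower (-1.71 ± 0.25). BURP3, of the plant-specific BURP family, fell by 0.82 (SE 0.17).

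CASP-like membrane proteins, relatives of those that place the Casparian strip of roots, fell in 6 of 22 genes and rose in 2, with a median of -0.34. The shares over all named genes were 7.66% lower and 7.88% higher. CASPL2C1 had 1455, 1272 and 1136 in salt and 4021, 2466 and 4321 in control (-1.44 ± 0.23), and CASPL1U3 fell by 1.49 (SE 0.35). The summed signal of the 22 genes was 22285 to 25683 in salt arrays and 27923 to 33901 in control arrays. CASP1 itself was dim in every array, at 7.68 to 44.2 in salt and 42.6 to 89 in control. The 4 genes meant as root markers (CASP1, Lsi1, Lsi2 and Lsi6) summed to 4797 to 7348 in salt and 4211 to 5220 in control, a sum carried by Lsi6. The part that the share of root cells in a sample has in the falls of Lsi1 and the CASP-like genes was not tested.

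Marker genes of the tissue itself lay on both sides. OSH1, the knotted-type gene that marks the shoot meristem, had 6630, 7246 and 6392 in salt and 4463, 4962 and 3986 in control and was not called at a log2 change of 0.60. A second probe set of OSH1 was called higher at 0.57. MADS15, a flowering and floral meristem gene, had 54.3, 345.2 and 259.5 in salt and 846.1, 518.4 and 691 in control, a log2 change of -1.85 ± 0.93 that was not called (adjusted p = 0.27). MADS14 (-0.48), MADS18 (-0.29), OSH43 (-0.50) and the epidermal gene ROC1 (-0.36) also had all salt arrays below all control arrays without a call. Another probe set of MADS14 was called lower at -0.81. HOS16, like OSH1, lay wholly above without a call, with 558.6, 633.9 and 555.9 in salt and 389.3, 458.3 and 410.1 in control. Over all probe sets tested 14.1% lay wholly above and 13.4% wholly below. The 12 meristem genes with a probe set summed to 16710 to 18099 in salt and 15774 to 17119 in control, a sum in which these opposite differences offset each other. HOS9, also called OSH71, rose by 0.46 ± 0.13 and was the only call among the 11 tested with 1 probe set a gene. That call held in 2 of the 6 fits that left out 1 array. The 17 leaf and chlorophyll genes summed to 67702 to 105395 in salt and 85009 to 96129 in control, with no call among 16 tested and a median of 0.03. Of 11 seed storage genes 6 were under the filter on dim probe sets, and none of the other 5 was called.

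Calcium signalling genes held few calls, 1 of them a large rise. CIPK14, a kinase that calcium sensors of the calcineurin B-like family switch on, had 5149, 3355 and 2987 in salt, against 248, 383.2 and 213.6 in control. No array overlapped, and the log2 change was 3.69 ± 0.22 (adjusted p = 2.2e-10). Of the 44 kinases of this kind tested, 2 rose and 5 fell, where 7.88% of all named genes rose and 7.66% fell. The kinases thus did not stand out by their number of calls. CIPK10 fell by 1.18 (SE 0.27), a fall seen in all 4 of its probe sets, CPK20 by 1.15 (SE 0.22) and CIPK18 by 0.67 (SE 0.09). Of 24 calmodulins and related proteins 5 fell, CML9 by 0.82 (SE 0.18), and CML29 rose by 0.97 ± 0.21. The MAP kinases MPK14 (-0.39 ± 0.08) and MPK11 (-0.38 ± 0.11) fell among 16. The call of MPK11 held in 1 of the 6 fits that left out 1 array.

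**Figure D3:**
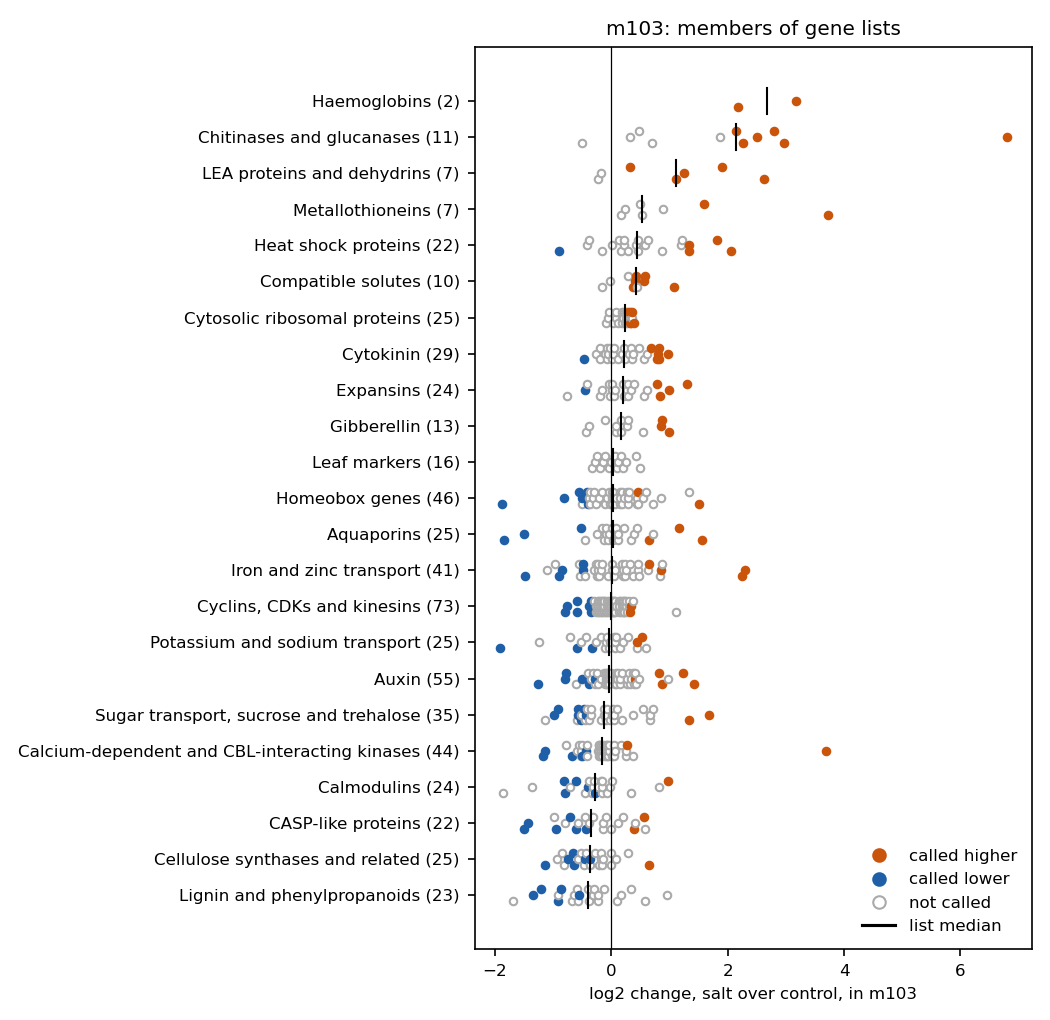
Each row is a gene list with the number of its tested members, points are the members' log2 changes of salt over control in m103 with 1 probe set a gene (orange called higher, blue called lower, open grey not called), and the black bar is the list's median. Among the lists drawn, medians lie above 1 for haemoglobins, chitinases and LEA proteins and below -0.3 for cellulose, lignin and CASP-like genes.

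Hormone genes were called in numbers that differed by hormone. DAO, the dioxygenase that oxidises auxin, had 4906, 4936 and 6132 in salt and 1846, 2418 and 1690 in control (1.43 ± 0.13, adjusted p = 1.7e-07). The auxin-conjugating enzymes GH3.11 (0.87 ± 0.23) and GH3-8 (0.81 ± 0.23) and the auxin repressor IAA2 (1.22 ± 0.24) rose, and the carrier PIN5 fell by 1.25 (SE 0.31). The call of GH3.11 held in 3 of the 6 fits that left out 1 array. Over 55 auxin genes 5 rose and 6 fell, where 7.88% of all named genes rose and 7.66% fell. Of 29 cytokinin genes 6 rose and 1 fell, with a median of 0.23. The rises were the response regulators RR2 (0.97 ± 0.18), RR4 (0.82 ± 0.17) and RR9 (0.78 ± 0.20), the cytokinin oxidases CKX3 (0.82 ± 0.21) and CKX11 (0.80 ± 0.16), and LOGL1 (0.68 ± 0.19), of the family that releases active cytokinin. The call of CKX3 held in 4 of the 6 fits that left out 1 array.

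Of 13 gibberellin genes 3 rose and none fell, all of them in synthesis. CYP88A5, the kaurenoic acid oxidase, rose by 0.999 ± 0.24, CPS1, which makes the first diterpene of the pathway, by 0.87 ± 0.20, and GA20OX3 by 0.85 ± 0.15. ACO1, which makes ethylene, rose by 0.80 ± 0.13, with 12015, 12703 and 10685 in salt and 6843, 6586 and 6767 in control. No brassinosteroid gene of 11 was called. D14, the receptor for the branching hormone strigolactone, had 4432, 3162 and 1771 in salt and 1375, 1085 and 914.7 in control (1.38 ± 0.23), the only call among 13 tillering and panicle branching genes.

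Regulators of growth moved singly. SPL14, a factor that shapes tillers and panicles and is also called IPA1, had 3028, 3193 and 3044 in salt and 1686, 2112 and 1736 in control (0.75 ± 0.13). SPL18 fell by 0.94 (SE 0.17) and the TCP-type factor PCF2 by 0.68 (SE 0.17). MADS56, a flowering factor, fell by 0.81 (SE 0.09), with 754.9, 762.6 and 721.7 in salt and 1273, 1227 and 1485 in control, and MADS16, a petal and stamen factor, rose by 0.59 ± 0.14. Of 46 homeobox genes 2 rose and 6 fell. Hox22, a homeodomain-leucine zipper factor, rose by 1.4997 ± 0.21, and HOS66, a knotted-like gene, had 789.2, 219.6 and 253.4 in salt and 1683, 1118 and 1310 in control (-1.88 ± 0.37). The clock genes GI (-1.12 ± 0.35) and PRR95 (-0.86 ± 0.21) fell and CCA1 rose (0.72 ± 0.22). The call of GI ended whenever 1 array was left out and that of CCA1 held in 1 of the 6 fits.

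The called changes of division and protein synthesis genes were small in size. Of 73 cyclins, kinases of the cycle and kinesins 2 rose and 8 fell, with a median of -0.00. The falls included the kinesin KIN14F (-0.60 ± 0.10), CYCP2-1 (-0.77 ± 0.16) and the cycle inhibitor KRP6 (-0.79 ± 0.22), and CYCD3-1 rose by 0.34 ± 0.09. The call of CYCD3-1 held in 3 of the 6 fits that left out 1 array. Among 31 DNA replication genes the flap endonuclease FEN1B (0.59 ± 0.13) and RPA32-2 (0.47 ± 0.10) rose. Of 25 cytosolic ribosomal proteins 6 rose and none fell, with RPS7 highest at 0.38 ± 0.10 and a list median of 0.23. Over all named genes 7.88% rose and 7.66% fell, so called rises were more frequent among the ribosomal proteins. These calls were not firm: those of RPS7, RPS26 and RPL5 held in 4, 5 and 1 of the 6 fits that left out 1 array. Under quantile normalization the list median was 0.15. ADF-5, an actin-depolymerising factor, rose evenly, with 13991, 12599 and 13886 in salt and 4322, 5394 and 4468 in control (1.52 ± 0.13, adjusted p = 3.9e-08).

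Most called probe sets matched a gene with an ID but no name. Of the called rises 1167 probe sets matched 1 gene (81.4%) and 204 a named gene, and of the called falls 1278 (79.6%) and 196, where 57.4% of all probe sets tested matched 1 gene. Named genes made up 14.2% of rises and 12.2% of falls, against 8.30% of all probe sets tested. LOC4352286 had 6503, 5947 and 5163 in salt, against 22.04, 101.4 and 42.8 in control, the lowest adjusted p among the unnamed rises named here (6.52 ± 0.36, adjusted p = 5.1e-11). LOC4351887 had 5500, 6820 and 337.8 in salt and 48, 6.76 and 3.78 in control (6.27 ± 0.89), and its second probe set rose by 7.70, the largest change of any tested probe set. LOC4341925, with 2415, 2120 and 2210 in salt and 103.3, 164.2 and 87.6 in control, was as even as LOC4352286 (4.11 ± 0.29). Others were LOC4352505 (4.78 ± 0.59, with 3.67 and an uncalled -0.95 in its other probe sets), LOC4349113 (4.41 ± 0.66), LOC4341587 (3.85 ± 0.35) and LOC4352132 (3.59 ± 0.36). All are listed as protein-coding in the reference, which gives them no name.

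Among the unnamed genes with an ID, LOC4340874 fell furthest, with 184.3, 92.9 and 93.7 in salt and 1164, 695.5 and 806.9 in control (-2.72 ± 0.54). LOC4332162 had 49, 8.96 and 6.14 in salt and 219.9, 209.5 and 157.5 in control (-2.67 ± 0.33, adjusted p = 1.3e-05). LOC4325587 (-2.66 ± 0.55), LOC4338442 (-2.66 ± 0.43), LOC4326982 (-2.56 ± 0.57) and LOC4332353 (-2.46 ± 0.46) were close to it, and their salt arrays all lay below their control arrays. LOC4324833, bright in control at 5291, 3889 and 4246, had 2767, 222.2 and 567.4 in salt, and its call held in 3 of the 6 fits that left out 1 array (-2.61 ± 0.67).

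Probe sets of 1 gene were often not called together. Of 2737 genes with at least 2 tested probe sets, 448 had a call, in 100 all probe sets were called the same way, and in 3 they were called both ways. The 3 were LOC4327446, LOC4331504 and LOC4348871. LOC4327446, for example, was at 0.47 ± 0.10 and -0.74 ± 0.16 in its 2 probe sets. Related genes such as the RAB16 family, chitinases, germins and small heat shock proteins can share probe targets, and the signals of family members cannot be fully told apart.

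Called genes that neighbour each other in the reference annotation were slightly more frequent than called genes in general. Of 9885 adjacent gene pairs with both members tested, 620 had a first member called higher, and in 60 of these (9.68%) the second was higher too, against 6.88% over all pairs. For falls it was 63 of 702 (8.97%), against 6.99%. In all, 10 runs of 3 adjacent genes called the same way were found. One held RAB16C, RAB16B and RAB21, at 1.12, 1.26 and 2.63, and another LOC4326000, pinA and RBBI3.3, at 1.65, 2.30 and 1.97. A run of falls held Hox28, HOX2 and LOC4340071, at -0.40, -0.42 and -0.69.

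The salt arrays differed in how far the large rises went. Over the 106 probe sets called higher by a log2 change of 2 or more, the median change against the mean of the control arrays was 3.48 on salt replicate 1, 3.02 on salt replicate 2 and 2.09 on salt replicate 3. Salt replicate 3 was the lowest of the 3 for 84 of the 106 (79.2%) and salt replicate 1 the highest for 67 (63.2%). Over all tested probe sets salt replicate 3 was the lowest for 33.5% and salt replicate 1 the highest for 32.6%. The 39 falls of log2 2 or more had medians of -1.87, -2.34 and -2.71 on salt replicates 1 to 3, with salt replicate 3 the lowest in 26. So salt replicate 3 held the smallest large rises and the largest large falls, and salt replicate 1 the reverse.

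The spread was not shared by all genes. Among the 106 large rises, 32 differed by more than log2 2 between the highest and lowest salt array. PBZ1, LOC4351887, LTP and LOC4338208 were among them, while Cht1, LOC4352286, LOC4341925, LOC4341587, GRXC10, RAB21 and NSHB1 kept their 3 salt arrays within log2 1 of each other. LOC4338208 had 13720, 1582 and 575.1 in salt and 184.9, 98 and 151.8 in control (3.91 ± 0.66). Replicates have no order, salt replicate 1 is also the only m103 array deposited already scaled, and the part of either in these gaps was not tested.

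**Figure D4:**
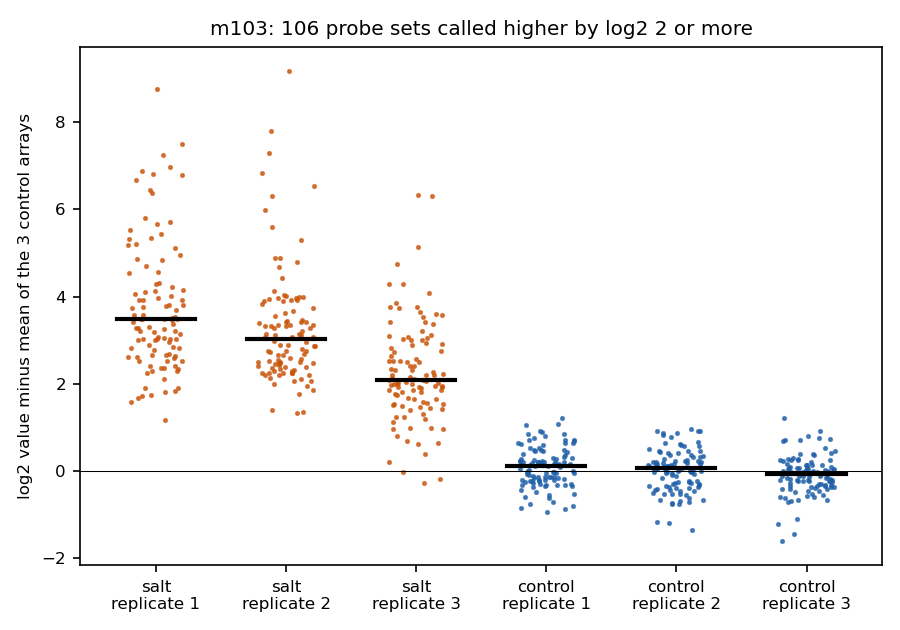
Each point is 1 of the 106 probe sets called higher by log2 2 or more, placed by its log2 value on an array minus the mean of the 3 control arrays, with the 3 salt arrays in orange left of the 3 control arrays in blue and a black bar at each array's median. The medians are 3.48, 3.02 and 2.09 on salt replicates 1, 2 and 3.

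To see where m103 stood apart, its salt effect was set against the mean effect of the other 3 sets, each with its own controls. Of 34355 probe sets, 551 differed (1.60%), 233 with a higher effect in m103 (0.678%) and 318 with a lower one (0.926%). Among the 233, 196 were also called higher in m103 itself, and among the 318, 301 were also called lower. The difference and the m103 effect share the m103 arrays. Leaving out an m103 array lowered the count most for control replicate 3 (168), salt replicate 2 (197) and control replicate 1 (206).

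The other sets repeated the rises of m103 to different extents. Of the 1433 probe sets called higher in m103, 104 were called higher in agami (7.26%, which is 58.1% of agami's 179 rises), 460 in the first ir29-labelled set (32.1%, 39.6% of its rises) and 337 in the second (23.5%, 22.2% of its rises). Of the 1606 falls, 58 were also called lower in agami (3.61%), 356 in the first ir29-labelled set (22.2%) and 267 in the second (16.6%). The probe sets that rose at least 2-fold in m103 had a median of 1.54 there. Their median was 0.30 for agami, 1.13 for the first ir29-labelled set and 0.22 for the second. Those that fell at least 2-fold had medians of -1.34, -0.36, -0.19 and -0.29. Both groups of probe sets were picked by their change in m103, so the m103 medians are large by that choice. Set beside the others, they cannot measure how much stronger the response of m103 was. The background was 0.521% called higher and 0.413% lower in agami, 3.38% and 2.42% in the first and 4.41% and 4.42% in the second ir29-labelled set.

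Named genes with a larger rise in m103 covered several of the groups above. GRXC1 changed by 5.22 in m103, and by -0.50, 2.38 and 0.29 in the other sets, in the order agami, first and second ir29 (difference 4.49 ± 0.51). Cht1 rose in all sets, by 6.79 in m103 and 2.41, 3.19 and 4.40 in the others, and the difference was still 3.46 ± 0.51 (adjusted p = 0.00074). MT4A differed by 3.20 ± 0.35, CIPK14 by 2.49 ± 0.26 and NSHB1 by 2.38 ± 0.35. These 3 were also called higher in the first ir29 set, at 1.73 for MT4A, 2.198 for CIPK14 and 1.87 for NSHB1, and CIPK14 in agami (1.09). Nramp1 rose by 2.29 in m103 and lay at 0.15, 0.12 and 0.42 in the other sets (difference 2.06 ± 0.38). PIP2;4 was at 1.56 in m103 and -0.23, 0.56 and 0.17 elsewhere (difference 1.39 ± 0.27).

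Heat shock proteins gave opposite calls between sets. HSP24.1 was called higher in m103 (1.81) and lower in agami (-1.96) and the second ir29 set (-2.41), a difference of 3.35 ± 0.45 (adjusted p = 0.00033). The second probe set of HSP18.6 was called higher in m103 (1.5003) and lower in the second ir29 set (-1.21), a difference of 2.16. CLPB1 was called higher in m103 (2.05) and lower in the second ir29 set (-1.29), a difference of 2.42 ± 0.28 (adjusted p = 3.2e-05). Of the 22 tested heat shock proteins 5 had a higher effect in m103 and none a lower one.

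Falls that went further in m103 included channels and wall genes. Lsi1 differed by -1.41 ± 0.33, TIP4;1 by -1.71 ± 0.35, HOS66 by -1.83 ± 0.43, CASPL2C1 by -1.19 ± 0.26, 4CL2 by -1.23 ± 0.31 and CAD3 by -0.94 ± 0.19. GER4 was at -0.85 in m103 and 0.23, 0.10 and 0.39 in the other sets (difference -1.09 ± 0.17, adjusted p = 0.0012). VIT1.2 was called lower in m103 (-1.48) and higher in the first ir29-labelled set (2.98). In all, 22 probe sets called lower in m103 were called higher in that set and 4 went the opposite way, while 29 called higher in m103 were called lower in the second ir29-labelled set and 17 called lower in m103 were called higher there. RAB21 had a difference of -0.12 ± 0.29 and SWEET15 one of -0.04 ± 0.31, neither called. A probe set that matches no gene in the annotation used was singled out after its values were seen: it was called higher in m103 (4.62) and lower in the first (-1.02) and second (-0.81) ir29-labelled sets, with a difference of 5.26 (adjusted p = 4.6e-13).

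**Figure D5:**
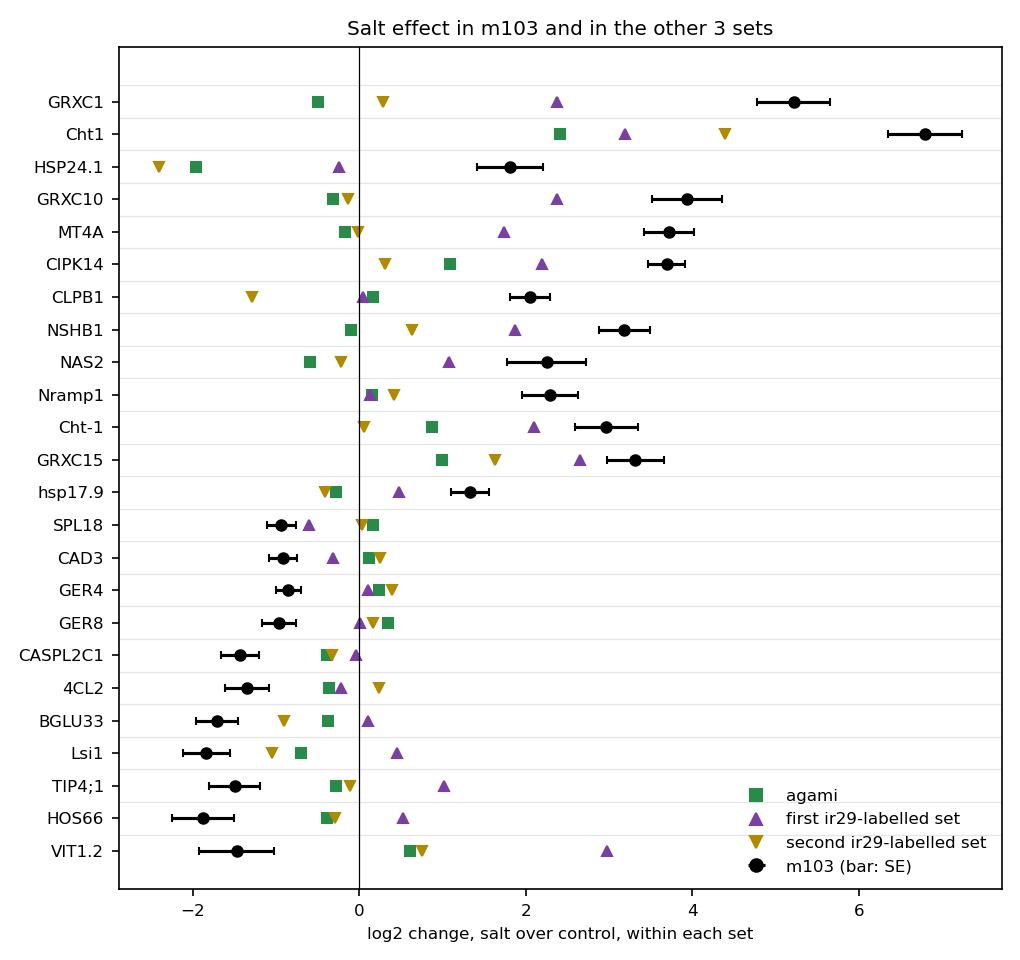
Rows are named genes whose salt effect in m103 differed from the mean effect of the other sets, with the log2 change of salt over control within m103 as a black circle (bar: SE) and within agami (square), the first (triangle up) and the second (triangle down) ir29-labelled set. GRXC1, MT4A and GRXC10 lie near 0 in agami and the second ir29-labelled set and at 1.73 to 2.38 in the first, and HOS66, Lsi1 and BGLU33 lie farthest left in m103.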

How the data were processed

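Total RNA of 24 rice samples was labelled as cRNA and hybridised to Affymetrix rice arrays. The deposited values were intensity per probe set on a linear scale, made by the authors with GCOS 1.2 per the submitters' processing notes, with 15 arrays already scaled and 9 not. Each array was rescaled to a trimmed mean of 500 with 2% left out at each end. Of 57381 probe sets, 123 Affymetrix controls were left out, and the 34355 above the 40th percentile of the mean of log2(signal + 16) were tested. This scale understates the change of dim genes. limma 3.58.1 in R 4.3.3 fitted 8 groups of 3 arrays with an intensity trend, with Benjamini-Hochberg adjustment over all tested probe sets, and was tested on simulated data. The contrasts were salt minus control within m103 and that effect minus the mean effect of the other 3 sets.

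Of the probe sets without controls, 22436 had 1 gene in the platform annotation, 95 several and 34727 none. RefSeq's genes of assembly ASM3414082v1 gave symbols for 2457 genes, each represented by its brightest probe set. The named genes were the 15 largest non-overlapping called rises and falls, up to 3 called members each way of each list with known salt genes, the largest unnamed genes and those with the largest differences from the other sets. The rule's use of product names could not be applied, as no table used here gives them. The members and lists were chosen with earlier results of these data known. Alternatives changed scaling, pseudocount, filter, trend, arrays in the fit and the replicate block, and left out each m103 array. Sequences are not reported here.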

Additional observations from a re-analysis of the deposited data

Results flagged for a closer look

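The salt effect in m103 differed from the mean effect of the other 3 sets for 551 probe sets by a limma contrast across all tested probe sets. The differences below are m103 minus the mean of the other sets in log2 units, for each gene of the report that passed. The m103 arrays enter both this contrast and the m103 effect itself.

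Among redox and metal genes the difference was 4.495 for GRXC1, 3.299 for GRXC10, 1.56 for GRXC15, 0.84 for GSTZ5, 3.20 for MT4A, 0.93 for MT2A and 2.38 for NSHB1. Among chitinases it was 3.46 for Cht1 and 1.96 for Cht-1. Among heat shock proteins it was 3.35 for HSP24.1, 2.42 for CLPB1, 1.401 for hsp17.9 and 1.35 for HSP16.9A. For the heat shock factor HSFA2C, not called in m103 by the same probe set, it was 1.34. For carriers and channels it was 2.06 for Nramp1, 2.17 for NAS2 and 1.39 for PIP2;4, against -1.41 for Lsi1, -1.71 for TIP4;1 and -2.92 for VIT1.2. The purine and lipid genes gave 0.49 for UAH, -0.49 for ALN and -0.55 for MGD3. ALN was called lower in every set. Its change of -1.60 in m103 was slightly smaller in size than the -1.68 of the first ir29-labelled set. It was larger than the -0.88 of agami and the -0.77 of the second ir29-labelled set. So the ALN difference holds against the mean of the other sets, not against each of them. The contrast has this limit for every gene of this section. In the first ir29-labelled set UAH was at 0.80 (0.93 in m103), MT2A at 1.29 (1.60 in m103) and GRXC15 at 2.645 (3.31 in m103). Nramp1, by contrast, was at 2.29 in m103 and at 0.12 to 0.42 in the other sets.

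Among signalling and growth genes the difference was 2.49 for CIPK14 and -0.49 for CIPK18, 0.65 for DAO, 0.79 for RR2, 0.86 for CKX11, 0.67 for SPL14, -0.80 for SPL18, 1.099 for Hox22, -1.83 for HOS66, -0.52 for MADS56 and 0.68 for ADF-5. ADF-5 was called higher in every set, by 1.52 in m103 and by 0.67 to 0.93 in the others. Wall and surface proteins gave -1.23 for 4CL2, -0.94 for CAD3, -1.19 for CASPL2C1, -1.13 for GER8, -1.09 for GER4, -0.79 for BURP3, -1.32 for BGLU33 and 0.85 for BGLU30.

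Of the unnamed genes, the difference was 5.50 for LOC4351887, 3.29 for LOC4341925, 2.32 for LOC4352132 and 2.29 for LOC4352286. It was -2.97 for LOC4326982, -2.68 for both LOC4325587 and LOC4340874, -2.35 for LOC4332353, -2.32 for LOC4338442 and -1.75 for LOC4332162. LOC4352286 was called higher in every set, by 6.52 in m103 and by 3.94 to 4.72 in the others.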

How the results depend on the processing

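The number of arrays limits every count. Leaving out 1 m103 array gave 1756 to 2579 called probe sets (791 to 1159 higher and 900 to 1444 lower), against 3039 with all arrays, and 1750 to 2574 calls whose arrays did not overlap, against 2981. The lowest counts came without control replicate 1, control replicate 3 or salt replicate 2. The count of effects that differed from the other 3 sets was 168 to 501 (80 to 252 higher and 87 to 328 lower), and the lower count was 208 without salt replicate 3. Quantile normalization gave 3334 calls, median centring 2439, a pseudocount of 1 2908 and of 64 3161, no filter 2536, a filter at the 60th percentile 3199, no intensity trend 2401 and the 6 m103 arrays alone 3014. Against agami alone, a comparison chosen after seeing the data, 349 effects differed, 181 of them lower. The deviations of m103 salt and control arrays with the same replicate number correlated at 0.081, 0.0017 and 0.035. For arrays with different numbers the correlations were -0.102 to 0.068. Values this small and this few cannot settle whether the numbers pair the arrays. With the replicate block 3449 probe sets were called, and 844 effects differed from the other sets, 519 of them lower. The cause of these shifts was not tested, beyond the loss of arrays or probe sets itself.

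Of 176 called genes in the report, none turned direction under any alternative run, 65 lost the call when some m103 array was left out, and 24 lost it without the intensity trend, 21 with the 6 m103 arrays alone, 15 with median centring, 15 with no filter, 6 with a pseudocount of 1, 2 with a pseudocount of 64, 3 with quantile normalization and 3 with the replicate block. Values that did turn sign belonged to results that were not called: CBF3 spanned -1.31 to 0.39 and EM -0.30 to 0.0071 when 1 array was left out, NAC048 -0.034 to 1.04, with -0.034 also from the m103 arrays deposited unscaled, MT2B was at -0.041 under quantile normalization, and the median of the meristem list -0.30 to 0.15. Over all probe sets of their members, the medians of the WRKY and MADS-box lists were -0.11 and -0.0048.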
